A study of Rattus norvegicus with 30 samples.

Results

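The comparison is between primary rat hepatocytes harvested 48 h and 24 h after a dose of 0.5 mM sodium valproate, 5 cultures at each time, 10 of the 30 samples of the study. The members were taken from the sample titles, which give the time and the concentration. The cells were frozen hepatocytes of male Sprague Dawley rats, thawed, attached to collagen-coated wells, covered with a Matrigel overlay and dosed on the third day of culture. The other groups used here are 10 mM valproate at 48 h and at 24 h and water, the vehicle, at 48 h and at 24 h, again with 5 cultures each. Each culture was 1 well and was read on 1 rat expression array. The labels call the cultures independent and do not state how many animals they came from, so p-values cover only culture-to-culture spread.

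Valproate is a branched short-chain fatty acid given against epilepsy. It inhibits histone deacetylases, and hepatocytes handle it in part like a fatty acid, through coenzyme A and carnitine esters. Isolated hepatocytes also change with time in culture: they lose drug-metabolising enzymes and recover from the inflammatory stimulus of isolation. Within 1 dose the time comparison therefore holds the age of the culture together with the length of exposure, and these cannot be told apart without the water cultures.

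Several groups of metabolic genes rose between 24 h and 48 h at 0.5 mM, and inflammatory, macrophage and drug-metabolising genes fell. Genes of cholesterol synthesis, of fatty acid synthesis and of the response to amino acid shortage were higher at 48 h, by up to 1.29 on the log2 scale. Some genes of the serpin family, chemokines and complement were lower, with log2 changes down to -2.29 for Serpina3c. The change of the cholesterol genes differed from that in water, and the fall of the largest serpins and of the chemokine gene Cxcl1 also occurred in water, as did falls of P450, coagulation and complement genes.

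RNA quality was uneven at 48 h, and it is given before the results because many of them move with it. Beta-actin has control probesets at both ends of its transcript, and their 3'/5' signal ratio is larger for broken or incompletely copied RNA. As a log2 value it was 1.32, 1.05, 2.77, 2.23 and 1.74 in replicates 1 to 5 at 48 h, against 1.22, 1.37, 1.24, 1.22 and 1.40 at 24 h. Replicates 3, 4 and 5 at 48 h stood above all 24 h arrays and replicate 2 below them. The groups averaged 1.82 ± 0.69 at 48 h and 1.29 ± 0.09 at 24 h (SD, n = 5 each), a difference of 0.53 that an exact two-sided permutation test over 252 regroupings did not call (p = 0.143, where the smallest possible p is 0.00794). The same ratio for GAPDH was higher by 0.15 (exact permutation p = 0.0952). Outside this comparison the only array above 2 was replicate 3 of water at 24 h, at 2.76.

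**Figure D1:**
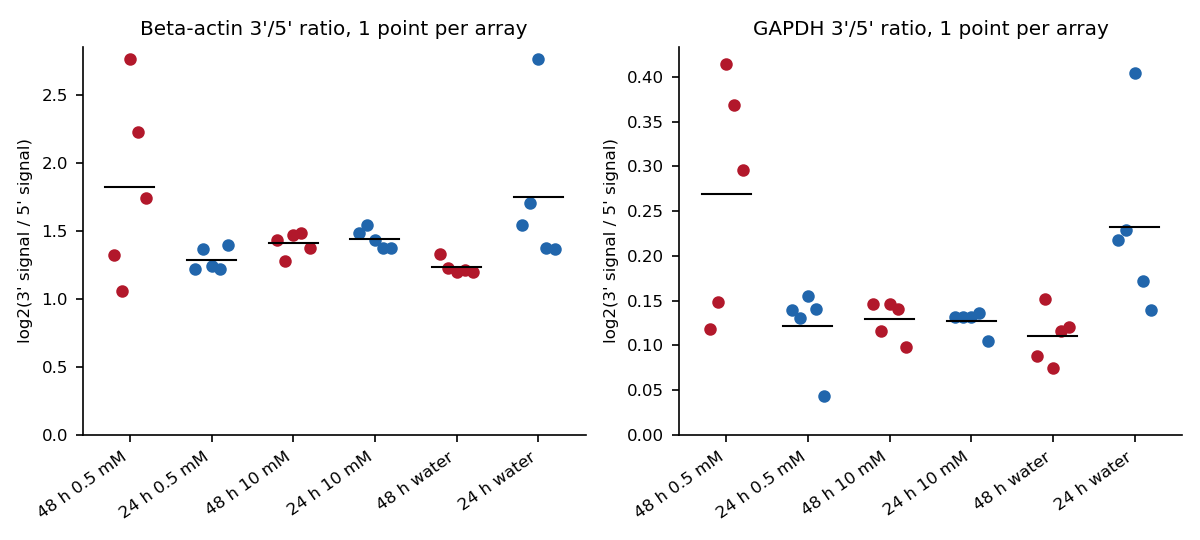
RNA quality of all 30 arrays as the log2 of the 3'/5' control probeset ratio of beta-actin (left) and GAPDH (right), 1 point per array in replicate order within each group, with a black line at the group mean. In the 0.5 mM cultures at 48 h, replicates 3 and 4 reached 2.77 and 2.23 for beta-actin, while the 24 h arrays lay between 1.22 and 1.40.

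Every change below is the difference of mean log2(signal + 16) at 48 h minus that at 24 h ± its standard error from the fit (n = 5 each), so it understates the change of dim genes. Calls were made with limma where the adjusted p was under 0.05. Of 11604 genes that passed the filter on low signal, 1168 (10.1%) rose and 782 (6.74%) fell. The counts of called list members below are to be read beside these shares. By at least 1 on the log2 scale, 40 rose and 45 fell. For 925 genes (7.97%) the 5 values at 48 h and the 5 at 24 h did not overlap, and 778 of these were among the called genes. The count rests in part on the arrays with high ratios. Without replicates 3 and 4 at 48 h, 290 genes (2.50%) were higher and 202 (1.74%) lower, and with the beta-actin ratio as a covariate 484 and 326. Leaving out a single 48 h array gave 671 higher and 437 lower without replicate 3, 672 and 467 without replicate 4, and 770 and 530 without replicate 5. It gave 1623 and 1160 without replicate 1, and 1479 and 1016 without replicate 2. Across all 30 arrays 3017 genes (26%) had a slope on the beta-actin ratio.

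A core of 276 genes that rose (2.38%) and 185 that fell (1.59%) was called in the same direction with all arrays, without replicates 3 and 4, and with the covariate. These 461 genes are called stable below. The deposited signals were scaled to the same trimmed mean on every array, so a shift of all RNA together would not be seen. When each array was instead centred on its ribosomal protein genes, the median change of all genes moved to 0.20, with 3200 genes higher and 141 lower, and changes are therefore given relative to the deposited scaling. All 1950 genes called with all arrays kept the sign of their change in both of the other fits, but 1489 of them were not called in all 3. The fits share arrays and the genes were chosen by the first, so the kept sign is no separate test.

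**Figure D2:**
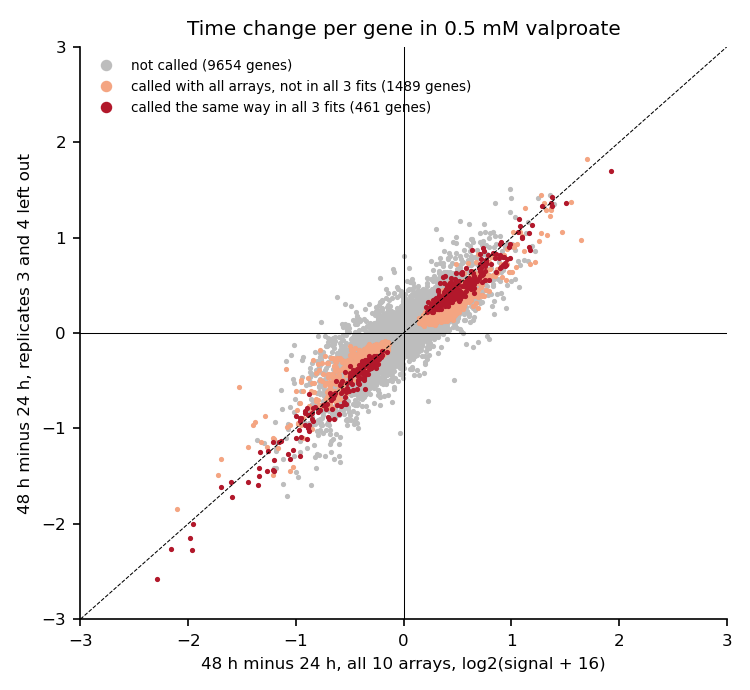
Change of each of the 11604 genes from 24 h to 48 h with 0.5 mM valproate, using all 10 arrays (horizontal axis) and without replicates 3 and 4 of the 48 h group (vertical axis), both on the log2(signal + 16) scale. The 461 dark red genes were called in all 3 fits and lie along the dashed line of equal change, and the 1489 orange genes were called with all arrays but not in all 3 fits.

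The largest falls included genes of plasma and urinary proteins and of inflammation. Serpina6, which encodes the corticosteroid-binding globulin of plasma, had signals of 384, 324, 430, 353 and 267 at 48 h, against 1814, 1781, 1511, 1523 and 1460.4 at 24 h. Serpina3c, a serine protease inhibitor, had 1924, 2997, 4341, 3212 and 2069 at 48 h, against 14507, 14477, 13529, 15096 and 11215 at 24 h. In both genes every 48 h culture lay far below every 24 h culture, with changes of -2.16 ± 0.14 (adjusted p = 1.16e-12) and -2.29 ± 0.16 (adjusted p = 1.48e-11). Its relative Serpina3l changed by -1.59 ± 0.10, and since probesets of such closely related serpins can share signal, these genes may not be separate measurements. Rup2, a urinary protein gene, changed by -1.35 ± 0.07 and remained bright, at 22278 to 31391 at 48 h against 65486 to 72019 at 24 h. Gstp3, of the glutathione transferase family, changed by -1.34 ± 0.27 and Fabp4, a fatty acid carrier best known from fat cells and macrophages, by -1.33 ± 0.25. Gpr182, an orphan receptor of endothelial cells, changed by -1.27 ± 0.35, while its other probeset changed by 0.47 (adjusted p = 0.632). These 7 genes were stable.

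Several genes that interleukin-1 induces or that restrain it fell. Cxcl1, a chemokine that draws neutrophils, had 602, 450.3, 684, 704 and 506 at 48 h, against 2025, 2451, 2464, 2608 and 2232 at 24 h, a change of -1.99 ± 0.14 (adjusted p = 1.48e-11). Il1rn, the antagonist of the interleukin-1 receptor, had 332, 109, 174, 349 and 311 at 48 h, against 740, 954, 1163, 937 and 1045 at 24 h. Its change of -1.96 ± 0.25 (adjusted p = 3.96e-06) left no overlap between the groups. Il1r2, a decoy receptor for interleukin-1, had 239.7, 406, 670.4, 463 and 489 at 48 h, against 1227, 1165, 1243, 1124 and 905 at 24 h. All 5 cultures at 48 h were below those at 24 h, by -1.35 ± 0.21 (adjusted p = 6.91e-05), and the change was -1.59 without replicates 3 and 4. Il1b itself changed by -0.69 and Il1a by 0.31, both uncalled.

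**Figure D3:**
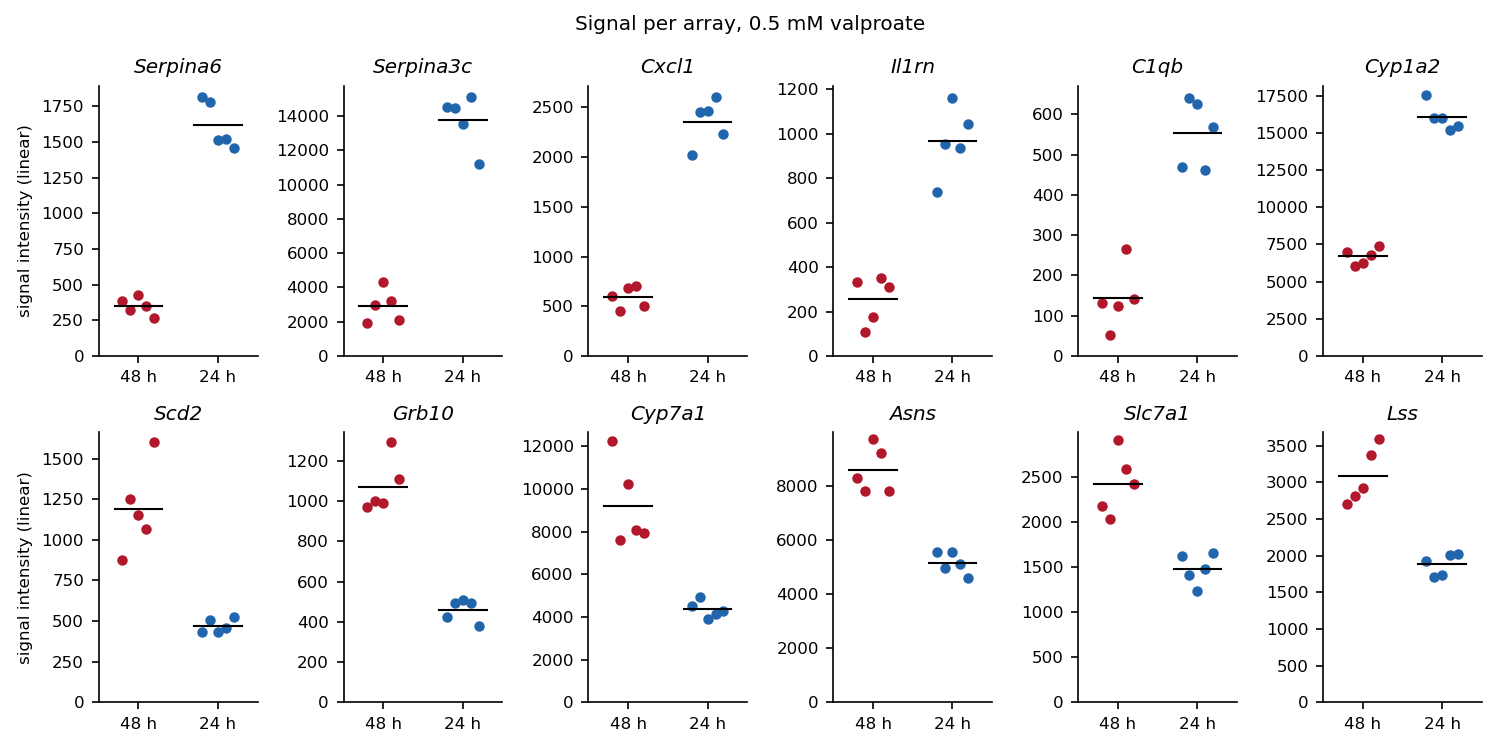
Signal intensity per array, on a linear axis from 0, of 6 genes that fell (top) and 6 that rose (bottom) with 0.5 mM valproate, with 48 h left of 24 h, 1 point per array in replicate order and a black line at the mean. In all 12 genes the 5 cultures at 48 h and the 5 at 24 h do not overlap.

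Across the list of chemokines and cytokines, 6 of 21 tested members fell and 0 rose, with a median change of -0.45 beside 0.00 over all genes. The stable falls were Cxcl1, Il1rn, Cxcl11 (-0.85 ± 0.10) and Cxcl10 (-0.88 ± 0.17), the last 2 being chemokines that interferon induces. Interferon-responsive and antigen-presenting genes behaved alike, with 9 of 21 lower, 1 higher and a median of -0.47, and 5 of the falls were stable. Isg15, a ubiquitin-like protein that interferon induces, had 1311, 1113, 1851, 1303 and 784 at 48 h, against 3856, 2737, 3671, 2352 and 2083 at 24 h, a change of -1.21 ± 0.25 (adjusted p = 0.00185). Irf7, a transcription factor that drives interferon genes, changed by -0.56 ± 0.14. The class II antigen presentation genes Cd74 (-1.07 ± 0.28) and RT1-Da (-0.996 ± 0.17) fell too. The member that rose was Ifit2, by 0.47 ± 0.10, opposite to its relatives Ifit3 (-0.93) and Ifit1 (-0.47). Neither its rise nor the falls of Ifit3 and Ifit1 were stable.

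Markers of macrophages moved with these genes. Of the 11 tested markers of Kupffer cells, the macrophages of liver, 6 fell and 0 rose, with a median of -0.47. C1qb, a subunit of complement C1q that macrophages make, had 132, 52.5, 124, 266 and 141 at 48 h, against 469, 641, 626, 462 and 570 at 24 h, a change of -1.97 ± 0.41 (adjusted p = 0.00196). Clec4f, a lectin of Kupffer cells, had 238, 489, 271, 472 and 405 at 48 h, against 478, 1172, 873, 778 and 976 at 24 h, a change of -1.15 ± 0.25 (adjusted p = 0.00253) with 1 pair of values that overlapped. Fcer1g (-0.65) and the lysozyme gene Lyz2 (-0.37) were the other stable falls. The summed signal of the 14 measured markers was 28026 to 33727 at 48 h, against 35517 to 38408 at 24 h, and Adgre1, Cd163 and Ptprc were below the filter level of 152. Most of this sum and of its fall came from the bright genes Cd14 and Lyz2. Cd14 averaged 18971 at 48 h and 22148 at 24 h, and its change of -0.23 was uncalled. Lyz2 averaged 6634 at 48 h and 8593 at 24 h. The part that macrophage content has in the falls of inflammatory genes was not tested, and in a bulk culture fewer cells of a type and less RNA per cell cannot be told apart. Summed markers of endothelial cells were also lower (2357 to 2814 at 48 h, 2835 to 3162 at 24 h), mostly through Lyve1 (-0.88 ± 0.22), which averaged 309 at 48 h and 580 at 24 h, while Eng averaged 778 at 48 h and 704 at 24 h. Those of biliary cells were higher (20592 to 21983 at 48 h, 18909 to 19727 at 24 h) through the bright genes Epcam and Anxa4, the other 5 measured markers had lower means at 48 h, and 0 of 4 tested members were called. Sums of stellate cell markers (4960 to 6680 at 48 h, 6053 to 6844 at 24 h) and lymphocyte markers (1565 to 1911 at 48 h, 1811 to 2171 at 24 h) overlapped between the times.

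The cultures kept the transcripts that define hepatocytes. All 10 measured hepatocyte markers passed the filter, 1 rose and 1 fell. Alb, the albumin gene, had 73676, 82440, 77170, 72767 and 81567 at 48 h, against 90995, 73156, 78584, 75366 and 88963 at 24 h, and the change of -0.07 ± 0.08 was not called. The lowest and highest sums of these markers were 482894 and 537960 at 48 h, against 514626 and 630263 at 24 h. Cyp2e1, an ethanol-oxidising P450, was the marker that fell, by -0.86 ± 0.10. Hnf4a, a master regulator of hepatocyte genes, rose by 0.30 ± 0.10 with all arrays but changed by 0.08 without replicates 3 and 4.

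Drug-metabolising P450 genes fell. Of 19 tested constitutive P450s, 7 were lower and 0 higher (median -0.16, or 0.04 with ribosomal centring), and 6 of the falls were stable. Cyp1a2, which oxidises caffeine, had 6950, 6067, 6267, 6800 and 7372 at 48 h, against 17564, 16003, 15989, 15172 and 15432 at 24 h, a change of -1.26 ± 0.12 (adjusted p = 6.93e-09). The 48 h values were all under those at 24 h. Cyp2c7 changed by -0.91 ± 0.10, Cyp2c13 by -0.59 and Cyp2c23 by -0.55, and Cyp2d4 by -0.43. Outside that list Cyp3a9, of the steroid-oxidising CYP3A family, changed by -0.97 ± 0.10. Cyp1a1, a gene that the aryl hydrocarbon receptor switches on, had a change of -0.20 (adjusted p = 0.522) and was bright at both times (30064 to 35786 at 48 h, 35564 to 40450 at 24 h).

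Complement, coagulation and other plasma protein genes fell by smaller amounts. In the complement and acute phase list 9 of 30 were lower and 2 higher, with 8 stable falls and a median of -0.15, which was 0.05 with ribosomal centring. C4bpb, the beta chain of the C4-binding protein, had 2280, 2143, 2141, 2143 and 2047 at 48 h, against 4971, 4980, 5301, 4420 and 4188 at 24 h, a change of -1.14 ± 0.10 (adjusted p = 1.06e-09). Fgl1, a fibrinogen-like protein, changed by -0.53 ± 0.06, the complement component C6 by -0.65 ± 0.13, the protease inhibitor A2m by -0.47 ± 0.11 and the siderophore carrier Lcn2 by -0.56. All 5 falls among 17 coagulation genes (median -0.10, or 0.10 with ribosomal centring) were stable, led by Serpind1, heparin cofactor II (-0.72), and including the 3 fibrinogen chains Fga (-0.31), Fgb (-0.28) and Fgg (-0.28). Hamp, which encodes the iron hormone hepcidin, had 1985, 2267, 2794, 2558 and 2010 at 48 h, against 3929, 4287, 2970, 3904 and 2838 at 24 h. It fell by 0.62 on the log2 scale (SE 0.11, adjusted p = 0.000229), with all 48 h values below those at 24 h.

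Genes of cholesterol synthesis rose together. Of 19 tested members of that list 11 were higher and 1 lower, with a median of 0.32, and 9 of the rises were stable. Lss, lanosterol synthase, which closes the sterol ring, had 2699, 2818, 2916, 3378 and 3585 at 48 h, against 1924, 1707, 1731, 2015 and 2027 at 24 h, a change of 0.70 ± 0.10 (adjusted p = 1.75e-05). Insig1, which retains the sterol sensor SCAP in the endoplasmic reticulum and is itself induced when sterols are low, had 25442, 26087, 24545, 26848 and 27583 at 48 h, against 19404, 18577, 17653, 19958 and 19648 at 24 h, a change of 0.45 ± 0.06 (adjusted p = 5.21e-06). In both genes the 48 h cultures were all above the 24 h cultures. The other stable rises were of the enzymes Mvd (0.43 ± 0.09), Sqle (0.43 ± 0.10), Fdft1 (0.39 ± 0.07), Hsd17b7 (0.37), Cyp51 (0.36 ± 0.08), Msmo1 (0.34) and Dhcr7 (0.32). Srebf2, the transcription factor of the pathway, was higher by 0.41 ± 0.13 with all arrays (adjusted p = 0.0367), which was not stable, and Tm7sf2, a sterol reductase, fell by 0.35 on the log2 scale.

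Fatty acid and triglyceride synthesis had 11 of 22 tested members higher and 0 lower, with a median of 0.30 and 6 stable rises. Scd2, a stearoyl-CoA desaturase, had 876, 1249, 1154, 1069 and 1602 at 48 h, against 433, 509, 431, 456 and 525 at 24 h, a change of 1.29 ± 0.14 (adjusted p = 1.39e-07). Its dimmer second probeset changed by -0.42 (adjusted p = 0.172). Fads1, the delta-5 desaturase, changed by 0.86 ± 0.14, and its 48 h values of 4018, 4828, 8181, 6613 and 6415 were all above the 24 h values of 2935, 3325, 2757, 3388 and 3688. The highest 48 h values were those of the arrays with high beta-actin ratios, and without replicates 3 and 4 its change was 0.64. Lpin1, a phosphatidate phosphatase, rose by 0.65 ± 0.09 (0.62 at its second probeset), Fasn, the fatty acid synthase, by 0.61 ± 0.12, and Acss2, which activates acetate, by 0.47. Scd (0.03), Srebf1 (-0.08) and Gpam (-0.07) were not called.

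**Figure D4:**
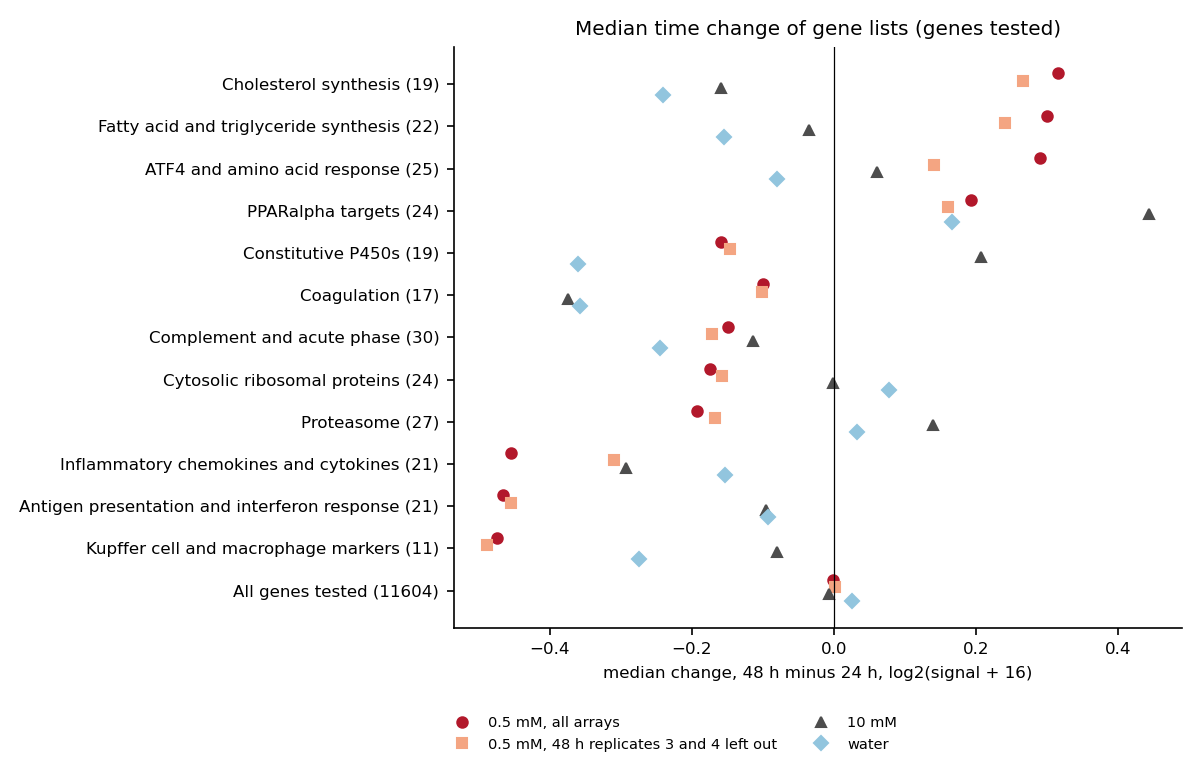
Median change from 24 h to 48 h of 12 gene lists and of all genes tested, on the log2(signal + 16) scale, for 0.5 mM with all arrays, 0.5 mM without 48 h replicates 3 and 4, 10 mM and water. The number of genes tested is in parentheses. The cholesterol, fatty acid and amino acid lists lie at 0.29 to 0.32 with 0.5 mM, and the cholesterol list at -0.24 in water.

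The list of genes that respond to amino acid shortage through the transcription factor ATF4 had 12 of 25 members higher and 1 lower, with a median of 0.29 and 8 stable rises. ATF4 is translated when amino acids run short or the endoplasmic reticulum is stressed, and it switches on genes for amino acid synthesis and import through a short promoter element. Without replicates 3 and 4 the median was 0.14. Asns, asparagine synthetase, had 8277, 7825, 9714, 9230 and 7800 at 48 h, against 5559, 4972, 5573, 5102 and 4601 at 24 h, a change of 0.73 ± 0.06 (adjusted p = 8.45e-10). Slc7a1, a carrier of cationic amino acids, had 2181, 2035, 2910, 2592 and 2419 at 48 h, against 1629, 1418, 1231, 1480 and 1661 at 24 h, a change of 0.70 ± 0.09 (adjusted p = 6.54e-06), while its dimmer second probeset changed by -0.06. In both genes no 48 h value reached down to the 24 h range. The serine synthesis genes Phgdh (0.76 ± 0.09) and Psat1 (0.40), the glutathione-degrading enzyme Chac1 (0.59 ± 0.08), the carriers Slc7a11 (0.53) and Slc38a2 (0.50) and the hormone gene Fgf21 (0.44 ± 0.12) were the other stable rises. Ddit3, a stress-induced transcription factor, fell by 0.28 on the log2 scale, a call that was not stable, and Atf3 changed by 0.14 and Trib3 by 0.29, both uncalled. In the list of endoplasmic reticulum chaperones 6 of 22 fell and 2 rose (median -0.09, or 0.11 with ribosomal centring), with Sdf2l1 at -0.58 ± 0.08 and the rises of Atf6 (0.73) and Sel1l (0.32) not stable. Atf4 itself changed by -0.02.

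Since 12 of the 25 amino acid response genes rose, the 250 bases before the start of each gene, from the RefSeq promoter table of the rat build GRCr8, were searched on both strands for the ATF4 element, written TGATGNAA. It was found in 5 of 23 members of the list with a promoter (21.7%), which were Slc7a1, Chac1, Fgf21, Nupr1 and Trib3, and in 1.93% of the 9693 tested genes with a promoter. The first 4 of them were among the 12 that rose (33.3%), and 1 of the 11 members not called higher had a match (9.09%). The list was made of genes known to respond through ATF4. A share above that over all genes therefore follows from how the list was made and is no result of these data. The 3 stable rises with a match are shown to let the element be seen in its setting, 5' to 3' on the strand of the gene, with the match in capitals. It starts 30 bases before the start of Slc7a1 (chr12:11664238-11664487, plus strand), 167 bases before that of Chac1 (chr3:126795881-126796130, plus strand) and 143 bases before that of Fgf21 (chr1:105221377-105221626, minus strand). In Chac1 and Fgf21 the element lies on the opposite strand and so reads TTGCATCA.
Slc7a1: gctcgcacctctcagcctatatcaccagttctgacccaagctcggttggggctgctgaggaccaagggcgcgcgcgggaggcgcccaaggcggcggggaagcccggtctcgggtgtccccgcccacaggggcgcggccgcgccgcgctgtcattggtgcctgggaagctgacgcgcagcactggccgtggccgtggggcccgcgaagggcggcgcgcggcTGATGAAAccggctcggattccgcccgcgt
Chac1: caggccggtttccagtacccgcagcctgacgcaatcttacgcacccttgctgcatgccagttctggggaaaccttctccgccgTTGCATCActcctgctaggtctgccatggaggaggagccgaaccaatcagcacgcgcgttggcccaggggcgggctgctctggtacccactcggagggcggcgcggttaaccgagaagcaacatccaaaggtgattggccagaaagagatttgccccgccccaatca
Fgf21: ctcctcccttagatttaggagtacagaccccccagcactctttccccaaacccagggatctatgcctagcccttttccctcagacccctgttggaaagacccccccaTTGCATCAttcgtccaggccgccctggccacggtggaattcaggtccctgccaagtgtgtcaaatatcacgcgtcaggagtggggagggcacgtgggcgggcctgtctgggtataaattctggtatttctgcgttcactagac
A match of letters is a description and not a site shown to be bound. A sterol element written TCACNCCAC was found in 0 of 15 cholesterol synthesis genes with a promoter and in 0.929% of all tested promoters. At so low a share, 15 promoters are too few to tell this absence from the rate over all promoters.

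Targets of PPARalpha, the receptor through which fatty acids induce their own oxidation, rose in part, with 9 of 24 higher, 1 lower and a median of 0.19. Ehhadh, a peroxisomal oxidation enzyme, had 9479, 9625, 11368, 12758 and 13456 at 48 h, against 6046, 5659, 6237, 6448 and 6730 at 24 h, a change of 0.85 ± 0.12 (adjusted p = 1.72e-05). Cpt1a, the carnitine transferase that admits fatty acids to mitochondria, rose by 0.79 ± 0.12, and by 0.55 without replicates 3 and 4, while its other probeset changed by -0.03. Pdk4, which restrains glucose oxidation, rose by 0.78 ± 0.10 with a second probeset at -0.05, Vnn1 by 0.65 and the fatty acid hydroxylase Cyp4a1 by 0.47 ± 0.08. These 5 genes were stable. The lipid droplet protein Plin2 changed by 0.00 ± 0.06 at its bright probeset but by -0.77 (adjusted p = 4.15e-06) at a dimmer one, and Acot1, an acyl-CoA thioesterase, by 0.22 ± 0.33. Mitochondrial beta-oxidation as a list moved little, with 3 of 22 higher, 1 lower and a median of 0.04. Over all genes 10.1% were higher and 6.74% lower.

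Other large rises were of single genes with varied roles. Cyp7a1, whose enzyme sets the pace of bile acid synthesis from cholesterol, had 12234, 7597, 10256, 8083 and 7948 at 48 h, against 4529, 4942, 3887, 4129 and 4307 at 24 h, a change of 1.06 ± 0.20 (adjusted p = 0.00091). S100a1, a calcium-binding protein, had 539, 461, 485, 389 and 425 at 48 h, against 159, 132, 173, 201 and 173 at 24 h, a change of 1.38 ± 0.19 (adjusted p = 9.33e-06). Grb10, an adaptor that binds the insulin receptor, had 968, 1001, 988, 1294 and 1107 at 48 h, against 426, 493, 510, 494 and 379 at 24 h, a change of 1.19 ± 0.13. None of these 3 overlapped between the times, but the dimmer probesets of Grb10 changed by -0.49 and -0.27, uncalled. Brf1, a subunit of the RNA polymerase III factor TFIIIB, rose by 1.38 ± 0.25, the actin regulator Carmil1 by 1.16 ± 0.16, the laminin chain Lamb3 by 1.16 ± 0.22, the muscle actin gene Acta1 by 1.10 ± 0.19, Ddah2 by 1.10 ± 0.19 and Tsx by 1.08 ± 0.19. All 9 were stable, but Lamb3 also had a called slope on the beta-actin ratio. Its highest 48 h values, 4050, 2834 and 3068, were those of replicates 3, 4 and 5. The change of Lamb3 was 0.91 without replicates 3 and 4 and 0.77 with the beta-actin covariate. Trim36, at 1.36 ± 0.38, and the falls of the lens crystallin gene Cryaa (-1.73 ± 0.48) and the matrix gene Dcn (-2.10 ± 0.48) passed with all arrays but not without replicates 3 and 4. There Trim36 changed by 1.23 (adjusted p = 0.129), Cryaa by -1.49 (adjusted p = 0.125) and Dcn by -1.84 (adjusted p = 0.0629).

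Calls in some groups were lost for the most part without replicates 3 and 4, although the median changes of the lists moved little. Of 24 cytosolic ribosomal protein genes 12 were lower and 0 higher (median -0.17), and 0 of these calls were stable. The median was -0.16 without replicates 3 and 4 and -0.15 with the beta-actin covariate. Ribosomal centring holds the mean of this list fixed on every array, so its median there (0.03) is no separate result. Rpl24 had 50902, 47267, 37617, 41171 and 42305 at 48 h, against 52368, 51044, 52944, 52515 and 57328 at 24 h. Its change was -0.29 ± 0.07 with all arrays and -0.19 without replicates 3 and 4 (adjusted p = 0.124), and its 2 lowest values were those of replicates 3 and 4. Of 27 proteasome genes 15 were lower and 0 higher (median -0.19, or 0.01 with ribosomal centring), of which 4 were stable, with Psma7 at -0.43 ± 0.07. That median was -0.17 without replicates 3 and 4 and -0.16 with the covariate. Oxidative phosphorylation had 7 of 29 lower and 1 higher (median -0.12, or 0.08 with ribosomal centring), with 1 stable fall. Hdac1, a target of valproate, had 1395, 1548, 432, 690.5 and 923 at 48 h, against 1156, 1416, 1464, 1611 and 1632 at 24 h. Its change of -0.67 ± 0.25 was not called (adjusted p = 0.0626), and the 3 low values were those of replicates 3, 4 and 5, the arrays with the highest beta-actin ratios. Cdkn1a, a cell cycle inhibitor that deacetylase inhibitors induce, changed by 0.43 ± 0.16 (adjusted p = 0.0717) at its bright probeset and by -0.64 (adjusted p = 0.000409) at the other.

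The next question was which of these changes also occurred without valproate. Between 24 h and 48 h in water 593 genes (5.11%) rose and 576 (4.96%) fell, and with 10 mM 1051 (9.06%) rose and 887 (7.64%) fell. The difference between the time change with 0.5 mM and that in water was called for 2516 genes (21.7%), and that between 0.5 mM and 10 mM for 1605 (13.8%). The comparison with water includes all 3 arrays with a beta-actin ratio above 2, 2 of them at 48 h with 0.5 mM and 1 at 24 h in water, which enter the difference with the same sign. When these 3 were left out, 831 genes (7.16%) were called in the same direction as before, 500 with a more positive change at 0.5 mM and 331 with a more negative one. Across the 11604 genes the time changes with 0.5 mM and in water, which share no array, correlated at a Pearson r of -0.13 with all arrays. It was 0.02 without 48 h 0.5 mM replicates 3 and 4, a value that still includes the 24 h water array with a high ratio. Over the 461 stable genes, which were chosen by their change with 0.5 mM, r was 0.55 with all arrays. Of these genes 260 had a change of the same sign in water, called or not. Of all 1950 called genes, 178 were called in the same direction in water and 192 in the opposite one. Of the 461 stable genes, 121 were called in the same direction in water and 32 in the opposite one. With 10 mM the counts were 317 and 149 for all called genes and 120 and 48 for the stable ones.

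The serpins and Cxcl1 fell in water too. Serpina3c changed by -2.29 with 0.5 mM, -1.14 with 10 mM and -2.63 in water, and its change at 0.5 mM differed from that at 10 mM (adjusted p = 0.00109). Serpina6 changed by -2.16 with 0.5 mM, -0.13 with 10 mM and -2.03 in water, so the difference from 10 mM was -2.04 (adjusted p = 1.77e-08) and that from water -0.13 (adjusted p = 0.663). Cxcl1 changed by -1.99 with 0.5 mM, -2.63 with 10 mM and -1.46 in water. Its difference from water was -0.53 and uncalled with all arrays (adjusted p = 0.0588), and -0.55 and called without the 3 arrays (adjusted p = 0.0489). Isg15 changed by -1.21 with 0.5 mM and -1.14 in water (difference -0.07, adjusted p = 0.914). Cyp1a2 fell less with 0.5 mM, at -1.26, than in water, at -1.78 (adjusted p = 0.0266 for the difference), a difference of 0.52 that was 0.51 and uncalled without the 3 arrays (adjusted p = 0.0898). In water 10 of 19 constitutive P450s fell and 1 rose, 11 of 17 coagulation genes fell and 0 rose, and 14 of 30 complement and acute phase genes fell and 0 rose. Some genes went the other way at 10 mM than at 0.5 mM: Car3, a carbonic anhydrase (-1.22 with 0.5 mM, 1.04 with 10 mM), C4bpb (-1.14 and 0.54), Cyp2e1 (-0.86 and 0.55) and Hamp (-0.62 and 0.42), with adjusted p-values of 1.88e-11, 7.83e-10, 2.73e-08 and 1.88e-05 for the difference.

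Most of the cholesterol synthesis genes that rose with 0.5 mM differed from water. In water 6 of its 19 members fell and 0 rose (median -0.24), and with 10 mM 7 fell and 0 rose (median -0.16). The difference from water was called for 10 members, and for 9 it was called both with and without the 3 arrays of high ratio, each time higher with 0.5 mM. Over all genes the shares called in these ways were 21.7% and 7.16%. Lss changed by 0.70 with 0.5 mM, -0.16 with 10 mM and -0.31 in water, a difference from water of 1.02 ± 0.14 (adjusted p = 3.54e-05), which was 1.01 without the 3 arrays (adjusted p = 0.000269). Insig1 changed by 0.45 with 0.5 mM, -0.31 with 10 mM and -0.01 in water, and the difference from water was 0.47 with all arrays and 0.53 without the 3. Of the fatty acid list 7 of 22 members and of the amino acid list 7 of 25 were called in this way with and without the 3 arrays, all higher with 0.5 mM. Slc7a1 changed by 0.70 with 0.5 mM, -0.17 with 10 mM and -0.30 in water, with a difference from water of 1.00 (0.83 without the 3 arrays). Asns changed by 0.73 with 0.5 mM, 0.01 with 10 mM and 0.24 in water, with a difference of 0.49 (0.39 without the 3 arrays).

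**Figure D5:**
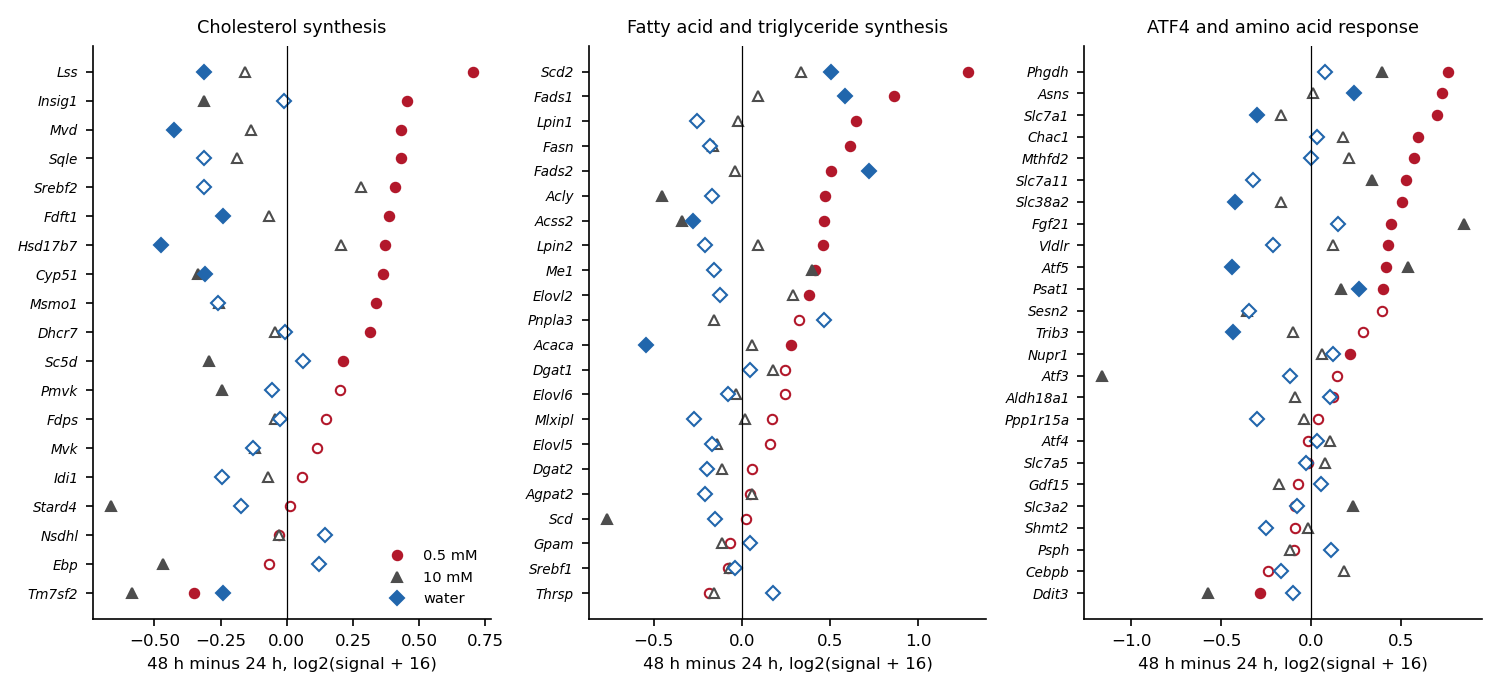
Change from 24 h to 48 h of each tested member of 3 gene lists on the log2(signal + 16) scale, for 0.5 mM valproate (red circles), 10 mM valproate (grey triangles) and water (blue diamonds), ordered by the change with 0.5 mM. Filled symbols were called at an adjusted p under 0.05. Of the cholesterol genes 11 rose with 0.5 mM, and 6 fell in water.

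Some PPARalpha targets rose in each of the 3 treatments. In water 6 of the 24 rose (median 0.17) and with 10 mM 18 rose (median 0.44). The difference from water was called for 6 of the 24 with all arrays, near the 21.7% of all genes. It was called both with and without the 3 arrays for 0 of them, beside 7.16% of all genes. Cyp4a1 changed by 0.47 with 0.5 mM, 1.21 with 10 mM and 0.62 in water, and Ehhadh by 0.85, 1.54 and 0.50. Pdk4 changed by 0.78 with 0.5 mM, 0.14 with 10 mM and 0.73 in water.

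Cyp7a1 was among the genes whose change in water had the opposite sign. It changed by 1.06 with 0.5 mM, 1.41 with 10 mM and -0.54 in water, a difference from water of 1.60 (adjusted p = 0.000492, and 1.62 without the 3 arrays), while its change in water was itself uncalled. Grb10 changed by 1.19 with 0.5 mM, -0.04 with 10 mM and 0.06 in water, and Scd2 by 1.29, 0.33 and 0.51. Grb10 averaged 1072 at 48 h and 460 at 24 h with 0.5 mM, against 1343 and 1299 in water. Scd2 averaged 1190 and 471 with 0.5 mM, against 1151 and 804 in water. Both genes, like Brf1 (200 against 589) and Carmil1 (393 against 769), were lower than in water at 24 h. At 48 h Grb10 was still lower, and Scd2, Brf1 and Carmil1 were not. Cyp7a1 was near water at 24 h (4359 against 4638) and above it at 48 h (9223 against 3191). Il1r2 changed by -1.35 with 0.5 mM, 0.09 with 10 mM and 0.15 in water, a difference from water of -1.50 (adjusted p = 0.00102) that was -1.88 without the 3 arrays. Cxcl10 changed by -0.88 with 0.5 mM, 0.05 with 10 mM and 0.04 in water. The difference of Clec4f from water, -1.08, was called with all arrays (adjusted p = 0.0294) and was -1.19 without the 3 (adjusted p = 0.0543). That of C1qb, -1.23, was uncalled (adjusted p = 0.137). Of the 11 macrophage markers 2 differed from water with all arrays and 0 both with and without the 3. Their median change in water was -0.27, with 0 members called there. The 3 largest differences from water in each direction by the rule for named genes were of Inf2 (2.64), Trim36 (2.58) and Zfp672 (2.54) upward and of Cryaa (-2.68), Acadsb (-2.26) and Btc (-2.13) downward. Without the 3 arrays those of Trim36 (2.38), Zfp672 (2.20) and Cryaa (-2.65) were still called, and those of Inf2 (1.81), Btc (-1.60) and Acadsb (-0.76) were not.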

How the data were processed

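Total RNA of each culture was biotin-labelled and read on 1 single-colour array, per the labels' protocols. The deposited values are signal intensities of 31099 probesets on a linear scale, made with MAS5 per the submitters' processing notes, and all 30 arrays had a trimmed mean near 1500.5. Neither its version nor its settings were stated. No arrays were pooled, and no pair correlated above 0.967. Groups were taken from the titles, and replicates were numbered in accession order.

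The log2(signal + 16) values were fitted for all 6 groups with limma 3.58.1 in R 4.3.3 (lmFit, eBayes with trend), after leaving out probesets with a mean below the 30th percentile. The Benjamini-Hochberg adjustment covered the 21729 probesets tested. Each gene is given by its brightest probeset, and probesets of related genes may share signal. The time changes of the treatments were compared by interaction terms. The fit was tested on simulated data. Genes were named by a rule: the 12 largest rises and falls whose groups do not overlap and whose mean in the higher group reaches the median of all probesets, up to 3 called members of each list, the 6 largest interaction values per direction, and a set of genes always given, of which Actb and Gapdh had no tested probeset. Other list members were named after their values were seen. The members and lists were chosen with earlier results of these data known. The alternatives were pseudocount, filter, normalization, variance model, array weights, fold minimum, probeset mean, running-number block, both RNA ratios and left-out arrays. Figures were drawn with matplotlib 3.10.9.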

Additional observations from a re-analysis of the deposited data

Results flagged for a closer look

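Some arrays stood far from the other 4 of their group for single measures, with a gap to the nearest array of more than 0.71 of the range of the group. This was so for 14 of 300 groups of values checked, and chance gives about 1 in 20. At 48 h with 0.5 mM the gaps were those of Gstp3 (replicate 2 lowest, 0.762), Dcn (replicate 1 highest, 0.727), Cd74 (replicate 1 lowest, 0.835), Uqcrc1 (replicate 3 highest, 0.841), Hba-a3 (replicate 5 lowest, 0.733) and Cdca8 (replicate 3 highest, 0.773). At 24 h they were those of the GAPDH ratio (replicate 5 lowest, 0.778), Aass (replicate 4 lowest, 0.739), Sdf2l1 (replicate 5 lowest, 0.716), Hnf4a (replicate 4 lowest, 0.741), Ndufb10 (replicate 1 highest, 0.722), Ube3b (replicate 5 highest, 0.769), Car3 (replicate 5 lowest, 0.838) and Cdkn1a (replicate 5 lowest, 0.789).

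For the genes named by rule, the change with 0.5 mM differed from that of another treatment by the test of the difference itself in 60 values, given here as the log2 change from 24 h to 48 h with 0.5 mM minus that of the other treatment. The change was more positive than in water for S100a1 (0.77), Brf1 (1.87), Trim36 (2.58), Scd2 (0.78), Grb10 (1.13), Arhgef2 (1.41), Carmil1 (1.17) and Cyp7a1 (1.60). Further such values were those of Lpin1 (0.90), Lss (1.02), Insig1 (0.47), Mvd (0.86), Phgdh (0.68), Asns (0.49), Slc7a1 (1.00) and Inf2 (2.64). Further such values were those of Zfp672 (2.54), Actmap (2.40), Nfic (2.39), Ube3b (2.37) and Ccn2 (0.50). It was more negative than in water for Tsx (-0.91), Cryaa (-2.68), Il1r2 (-1.50), Acadsb (-2.26), Btc (-2.13), Hba-a3 (-2.13), Actr2-ps1 (-1.84) and Entr1 (-1.80). Further such values were those of Tmem14a (-2.12). 

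Against 10 mM the change with 0.5 mM was more positive for Brf1 (1.90), Scd2 (0.95), Grb10 (1.23), Carmil1 (1.22), Ddah2 (1.11), Tsx (1.00), Cxcl1 (0.65) and Fads1 (0.77). Further such values were those of Lpin1 (0.67), Lss (0.86), Insig1 (0.77), Mvd (0.57), Asns (0.72), Slc7a1 (0.87), Ube3b (1.84) and Cdca8 (2.28). Further such values were those of Ccn2 (1.74), Slc5a3 (1.68) and Rhbdf2 (1.68). It was more negative than with 10 mM for Serpina3c (-1.15), Serpina6 (-2.04), Serpina3l (-1.07), Il1r2 (-1.44), Gstp3 (-1.49), Tmed1 (-2.40), Prrt1 (-2.31) and Car3 (-2.25). Further such values were those of Sult1e1 (-2.25), Crip1 (-2.15) and Tmem14a (-2.11). Without the 3 arrays of high beta-actin ratio, 21 of the 30 differences from water and 25 of the 30 from 10 mM were still called. Among those lost, Acadsb was -0.76 (adjusted p = 0.256), Actmap 1.64 (adjusted p = 0.214) and Nfic 1.74 (adjusted p = 0.084), while Trim36 stayed called at 2.38 (adjusted p = 0.0163).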

How the results depend on the processing

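Of 199 counts and ratios recomputed under another setting 154 kept their call or stayed within 1.5 times, and of 4424 values of single genes 3709 kept their call, 661 kept their direction but not their call, 28 gained a call and 26 changed sign. For the 80 named stable genes, 1964 of 2070 values kept their call, 106 did not and 0 changed sign. Stable genes were selected as called with the beta-actin covariate and without the pair of arrays with high ratios. These settings are scored again here, so the share that kept its call is no separate test of robustness. Pseudocounts of 1 and 64, quantile normalization, other filters on low signal, a fit without a variance trend and a block for the running number of the titles left each count for 0.5 mM within 1.5 times. The labels give no replicate numbers, so no pairing was assumed.

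Genes with 0.5 mM numbered 3200 higher and 141 lower with ribosomal centring (95.8% higher among those called, against 59.9%), 380 and 253 with only the compared groups, 40 and 45 with a fold minimum, 484 and 326 with the beta-actin covariate, 229 and 172 with the GAPDH covariate, 290 and 202 without both 48 h arrays above a ratio of 2, and 401 and 284 without all 3 such arrays, a setting chosen after seeing the data. With the mean of a gene's probesets 51.0% of called genes were higher, and with the fold minimum 47.1%. Leaving out 1 array gave 671 to 1623 higher and 437 to 1160 lower. The difference from water had 2859 and 128 genes with ribosomal centring, 678 lower with only the compared groups, 114 and 124 with the fold minimum, 242 and 145 with the beta-actin covariate, 81 and 54 with the GAPDH covariate, 620 and 410 without both arrays, 523 and 368 without all 3, and 1072 to 1751 higher and 801 to 1434 lower without 1 array. The difference from 10 mM had 2252 and 192 with ribosomal centring, 1289 higher with array weights, 61 and 93 with the fold minimum, 532 higher with the GAPDH covariate, 518 higher without both arrays, and 643 to 1106 higher and 618 to 974 lower without 1 array. Water had 215 higher with ribosomal centring and 365 lower with the beta-actin covariate, and 10 mM had 693 higher with ribosomal centring. The slope on the beta-actin ratio was called for 747 genes upward and 526 downward with only the 2 groups at 0.5 mM, against 1851 and 1166. The difference in that ratio was 0.30 to 0.73 without 1 array, and 0.73 without replicate 2 at 48 h (exact permutation p = 0.0238).

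Changes of sign were all of values that were uncalled there, except Plin2. Alb was 0.0747 with quantile normalization and 0.13 with ribosomal centring, under which Ldha was 0.0189 and Cyp1a1 0.0042. The mean of the probesets gave Mxi1 -0.20, Cry2 -0.0685, Ghr -0.14, Plin2 -0.38 (adjusted p = 6.51e-05) and Cdkn1a -0.11. Acadsb was 0.16 with the beta-actin covariate and 0.53 with the GAPDH covariate, and its difference from water 0.0696 and 0.57. The GAPDH covariate also gave Hnf4a -0.0046, Actr2-ps1 0.10 (difference from water 0.0563), Cdkn1a -0.0734 and Hdac1 0.13. Plin2 was -0.0020 without both or all 3 arrays and between -0.0183 and 0.038 without 1 array. The cause of these shifts was not tested. Precision is limited by 5 arrays a group, and dim genes are the least certain.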
